A study of Mus musculus with 60 samples.

Results

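Periostin (Postn), tenascin-C (Tnc), tenascin-X (Tnxb), thrombospondin 1 (Thbs1), thrombospondin 2 (Thbs2) and Sparc are 6 matricellular genes, and their transcript levels were measured in cancer-associated fibroblasts (CAFs) that met mouse lung cancer cells. The members were taken by gene symbol from 3 count tables. Each of the 6 symbols had a single row among the 48440 genes listed in every table, and all 6 members passed the filter on low counts in all 3 tables. The fibroblasts are called tCAFs in the labels, which do not explain the prefix. In the aggregate table the tCAFs had been grown in multicellular aggregates with 344SQ cells, with 393P cells or alone, with 3 biological replicates each. The titles of the aggregates without cancer cells carry the tag GFP, and the labels do not say whether the other cultures carried it. A second table holds aggregates of tCAFs with 344SQ cells given an shRNA named shZEB1 or the control shRNA named shCTL, again with 3 replicates each and with no culture of tCAFs alone. In the Boyden table, a porous membrane stood between the tCAFs and 344SQ cells or 393P cells, or the tCAFs were alone, with 5 biological replicates each and 3 technical libraries per replicate that were summed. Both 393P and 344SQ were derived from mouse lung adenocarcinomas. 393P is epithelial and poorly metastatic, 344SQ is metastatic and can turn mesenchymal, and ZEB1 is a repressor of epithelial genes. The labels name neither the fibroblast donor animals nor an age, so p-values measure the spread between these cultures, which may be technical.

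Matricellular proteins are secreted into the matrix but are not its load-bearing fibres. They bind collagens and fibronectin on one side and cell receptors such as integrins, syndecans and CD47 on the other, and they tune adhesion and the activity of growth factors. In healthy adult tissue most of them are scarce, and activated fibroblasts of wounds and tumour stroma make them. Tenascin-X is the exception among these genes, as a protein of resting connective tissue.

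Total counts were low in the aggregates, at 757717 to 1258751 counts per library, and at 739530 to 2144803 in the shRNA libraries. The summed Boyden replicates held 4182944 to 8542262 counts. Values are CPM, the counts of a gene as a share of its library, scaled by TMM, a method that corrects for differences in library composition, and errors of CPM are SD over replicates. Fibroblast markers summed to 3462 to 3751 CPM with 344SQ cells in the aggregates, to 5336 to 6377 CPM with 393P cells and to 3124 to 4458 CPM in CAFs alone, although Lum, a fibroblast proteoglycan, never exceeded 3 counts there. Carcinoma markers stayed at or below 90.7 CPM in sum in these 9 libraries. In the shRNA libraries the same 12 carcinoma markers summed to 46.2, 959 and 553 CPM with shZEB1 and to 62.7, 65.5 and 1473 CPM with shCTL. The tCAFs were enriched by sorting before lysis, but with these carcinoma marker sums Zeb1 cannot be assigned to the fibroblasts alone, and it does not check the knockdown in the cancer cells. Its level was 144, 48.4 and 120 CPM with shZEB1 and 71.8, 105 and 50.3 CPM with shCTL, a log2 change of 0.47 ± 0.53 (SE, adjusted p = 0.896, edgeR).

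The sequences just before the RefSeq start sites of Postn, Tnc and Tnxb are shown because these genes changed most in the aggregates. Each is 250 bases long, 5′ to 3′ on the gene's strand, from the GRCm38.p6 assembly. They lie at chr3:54360857-54361106 (plus strand), chr4:64047016-64047265 (minus strand) and chr17:34670285-34670534 (plus strand). Capitals mark the motifs that were searched on both strands, which were TATAAA (the TATA box), CAGAC (bound by SMAD proteins), TGANTCA (bound by AP-1) and GGAATG (bound by TEAD proteins), and no marked motifs overlap here.
Postn: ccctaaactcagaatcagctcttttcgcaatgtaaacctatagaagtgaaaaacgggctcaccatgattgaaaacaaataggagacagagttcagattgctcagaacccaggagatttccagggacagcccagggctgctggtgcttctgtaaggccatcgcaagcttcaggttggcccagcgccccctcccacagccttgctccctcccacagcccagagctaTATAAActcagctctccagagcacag
Tnc: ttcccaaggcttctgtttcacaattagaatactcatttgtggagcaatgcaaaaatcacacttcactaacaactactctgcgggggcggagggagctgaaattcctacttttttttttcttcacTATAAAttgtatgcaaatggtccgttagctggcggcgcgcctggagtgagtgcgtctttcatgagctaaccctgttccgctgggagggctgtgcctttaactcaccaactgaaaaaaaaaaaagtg
Tnxb: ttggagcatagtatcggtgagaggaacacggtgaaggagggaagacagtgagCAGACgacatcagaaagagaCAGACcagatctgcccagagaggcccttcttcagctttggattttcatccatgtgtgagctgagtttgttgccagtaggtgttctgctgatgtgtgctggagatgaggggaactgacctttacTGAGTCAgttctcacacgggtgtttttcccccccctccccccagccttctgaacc
The Postn window holds TATAAA 26 bases before the start, and the Tnc window holds it 126 bases before the start. In the Tnxb window CAGAC stands 198 and 178 bases before the start, and TGANTCA stands 55 bases before it. Of 32851 RefSeq windows of the same length, 12.4% hold TATAAA, 42.2% CAGAC, 6.75% TGANTCA and 12.6% GGAATG. A match is a description of these letters and says nothing of binding in these cells.

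In the aggregates, contact with 393P cells was set against CAFs alone to ask what these cancer cells change in fibroblasts that touch them. Postn rose 11.2-fold and Tnc 3.96-fold, while Thbs1 and Tnxb fell to 0.306 and 0.247 of their level in CAFs alone. Thbs2 and Sparc did not pass the test. With 4 of 6 members called (2 higher and 2 lower), the members can be read against 10.7% of the 7992 genes tested (5.41% higher and 5.27% lower). A call here is a Benjamini-Hochberg adjusted p under 0.05 in edgeR's quasi-likelihood test over all genes of the table. The values of 3 replicates did not overlap those of CAFs alone for 5 members, against 26.0% of all genes tested.

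Periostin, a ligand of αv integrins that promotes collagen cross-linking, had the smallest p of all 7992 genes. Postn (ENSMUSG00000027750.16, GRCm38 chromosome 3, 54361109 to 54391037, plus strand) had 367, 337 and 411 CPM with 393P cells and 36.2, 33.0 and 29.3 CPM in CAFs alone. All 3 libraries with 393P cells stood far above every library of CAFs alone. The log2 change was 3.49 ± 0.20 (SE, adjusted p = 4.76e-13). The 344SQ cultures had 30.8, 31.5 and 18.7 CPM, within or below the range of CAFs alone, and a log2 change of -0.30 ± 0.25 against CAFs alone (adjusted p = 0.615). Between the cancer lines, the log2 difference of 344SQ over 393P cultures was -3.79 ± 0.20 (adjusted p = 1.16e-13), again the smallest p of the table. Outside the 393P cultures Postn rested on 20 to 42 counts per library.

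Tenascin-C, an anti-adhesive hexamer that binds fibronectin and is typical of wounds and tumour stroma, was higher with both cancer lines. Tnc (ENSMUSG00000028364.15, chromosome 4, 63959785 to 64047015, minus strand) had 655, 817 and 1214 CPM with 344SQ cells, 1862, 822 and 574 CPM with 393P cells and 215, 408 and 206 CPM in CAFs alone. Every coculture exceeded every library of CAFs alone, but replicate 1 with 393P cells was more than its group's other libraries together. The log2 change was 1.71 ± 0.30 with 344SQ cells (SE, adjusted p = 0.000255) and 1.99 ± 0.30 with 393P cells (adjusted p = 1.52e-05, edgeR). Without 393P replicate 1 the 393P value was 1.35, and the difference of 344SQ over 393P cultures, -0.28 ± 0.28 with all libraries (adjusted p = 0.754), was 0.35. The gene overlaps 8030451A03Rik on the opposite strand, and the strand setting of the counting is not given in the sources used here.

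Tenascin-X spaces and stabilises collagen fibrils, and its loss causes a form of Ehlers-Danlos syndrome in humans. Tnxb (ENSMUSG00000033327.16, chromosome 17, 34670535 to 34719815, plus strand) had 20.6, 18.2 and 19.6 CPM with 344SQ cells, 23.5, 26.2 and 20.9 CPM with 393P cells and 101, 83.3 and 103 CPM in CAFs alone. Both cocultures lay in a narrow band below CAFs alone, with no overlap. These values rested on 15 to 21 counts per library with 344SQ cells, 20 to 33 with 393P cells and 63 to 117 in CAFs alone. The log2 change was -2.30 ± 0.24 with 344SQ cells (SE, adjusted p = 1.18e-07) and -2.02 ± 0.22 with 393P cells (adjusted p = 1.06e-07, edgeR). Cultures with 344SQ cells were below those with 393P cells in every library, yet the difference of -0.28 ± 0.27 did not pass the test (adjusted p = 0.741). The gene overlaps Gm24389 and the pseudogene Cyp21a2-ps on the opposite strand.

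Thrombospondin 1 binds CD47 and CD36 and can activate latent TGF-beta. Thbs1 (ENSMUSG00000040152.8, chromosome 2, 118111876 to 118127133, plus strand) had 2216, 2287 and 3344 CPM with 344SQ cells, 1653, 1144 and 1171 CPM with 393P cells and 3146, 5409 and 4404 CPM in CAFs alone. The 393P cultures lay below all others, and the highest 344SQ library overlapped the lowest library of CAFs alone. Against CAFs alone the log2 change was -0.72 ± 0.20 with 344SQ cells (SE, adjusted p = 0.0211) and -1.71 ± 0.20 with 393P cells (adjusted p = 2.65e-07, edgeR). Cultures with 344SQ cells exceeded those with 393P cells by 0.98 ± 0.20 on the log2 scale (adjusted p = 0.00163). The 344SQ call against CAFs alone was lost without CAFs alone replicate 2 or 3 or 344SQ replicate 1 or 2, at log2 changes of -0.54, -0.72, -0.61 and -0.63 (adjusted p from 0.0741 to 0.179), and with DESeq2 (adjusted p = 0.221). Thbs1 overlaps Gm29233 on the opposite strand.

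Thrombospondin 2 lacks the motif with which its paralog activates TGF-beta, and it restrains angiogenesis. Thbs2 (ENSMUSG00000023885.8, chromosome 17, 14665500 to 14694235, minus strand) had 397, 282 and 378 CPM with 344SQ cells, 228, 341 and 289 CPM with 393P cells and 271, 420 and 261 CPM in CAFs alone. The 3 groups overlapped. The log2 change against CAFs alone was 0.16 ± 0.19 with 344SQ cells (SE, adjusted p = 0.752) and -0.14 ± 0.19 with 393P cells (adjusted p = 0.752, edgeR), and the 393P value turned to 0.10 without CAFs alone replicate 2.

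Sparc binds collagens and calcium and guides fibril assembly. Its gene (ENSMUSG00000018593.12, chromosome 11, 55394500 to 55423183, minus strand) had 772, 1083 and 908 CPM with 344SQ cells, 1166, 1377 and 1452 CPM with 393P cells and 951, 1064 and 904 CPM in CAFs alone. The 393P cultures were above all libraries of the other groups. The log2 change with 393P cells against CAFs alone was 0.45 ± 0.16 (SE, adjusted p = 0.0643), and it passed with DESeq2 (adjusted p = 0.0175). For 344SQ cells it was -0.08 ± 0.16 against CAFs alone (adjusted p = 0.870) and -0.53 ± 0.16 against 393P cells (adjusted p = 0.0513). The last value passed with DESeq2 (adjusted p = 0.00812) and with no filter on low counts (adjusted p = 0.0349).

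Against CAFs alone, 344SQ cells thus gave 3 calls among 6 members (1 higher and 2 lower), beside 5.84% of all genes tested (3.48% higher and 2.36% lower). Values did not overlap for 2 members, beside 21.5% of all genes. Between the lines in aggregates, 2 members were called (344SQ over 393P, 1 higher and 1 lower) beside 4.15% of all genes (2.21% higher and 1.94% lower), and 4 members did not overlap beside 17.9%. These comparisons share libraries, since CAFs alone serve both cancer lines.

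Mural cell markers, like Postn, were highest with 393P cells in the aggregate table. The 8 markers summed to 37.9 to 52.3 CPM with 344SQ cells, 171 to 268 CPM with 393P cells and 23.8 to 32.4 CPM in CAFs alone, with 3 to 6 of the 8 at 0. Most of the sum came from Notch3, at 16.5 to 25.4 CPM with 344SQ cells, 124 to 162 CPM with 393P cells and 15.8 to 20.3 CPM in CAFs alone, and from Cspg4. The 8 fibroblast markers did not all stand on one side. Pdgfrb had 1257 to 1913 CPM with 393P cells, against 348 to 399 CPM in CAFs alone, and Thy1 had 590 to 836 CPM with 393P cells, against 146 to 177 CPM in CAFs alone. Col1a1, at 1363 to 1997 CPM with 393P cells against 728 to 1147 CPM in CAFs alone, and Vim, at 464 to 551 CPM with 393P cells against 313 to 451 CPM in CAFs alone, also stood above CAFs alone without overlap. Dcn had 9.06 to 27.0 CPM with 393P cells, against 75.0 to 87.2 CPM in CAFs alone, and Pdgfra had 120 to 141 CPM with 393P cells, against 359 to 718 CPM in CAFs alone. Col1a2 overlapped, and Lum was at 0 in both groups. The shRNA libraries, which are also aggregates, had mural marker sums of 244 to 576 CPM while Postn had 24.3 to 70.4 CPM. These sums rest in part on other genes, as Rgs5 had 53.0 to 166 CPM with shZEB1 and 99.2 to 155 CPM with shCTL. In the 393P aggregates Rgs5 never exceeded 1 count. Notch3 had 32.5 to 77.9 CPM with shZEB1 and 32.4 to 62.4 CPM with shCTL, below its level in the 393P aggregates. In bulk samples fewer cells of a type and less RNA per cell cannot be told apart, and the part of these markers in the change of Postn was not tested.

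**Figure D1:**
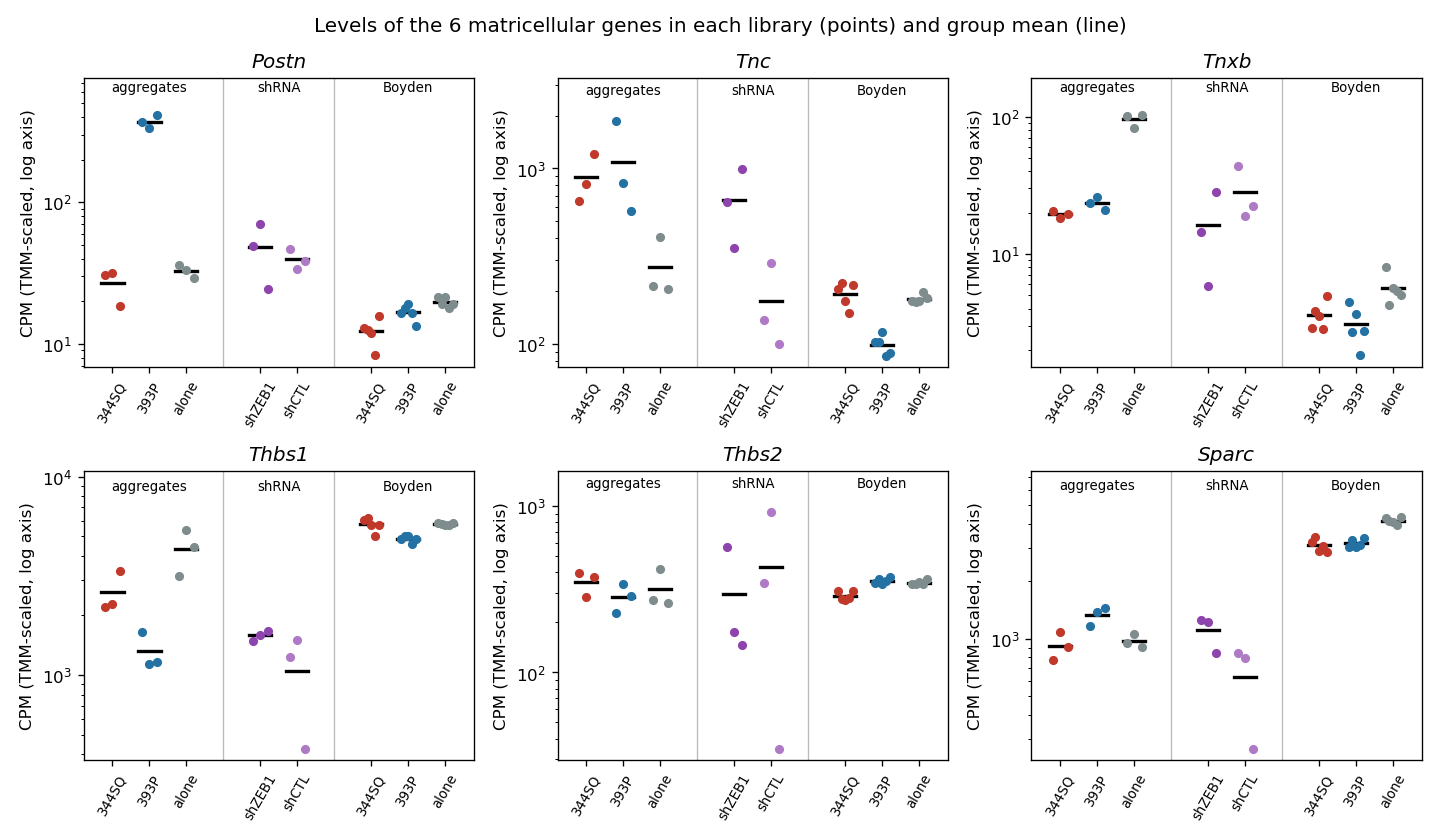
Scaled CPM (log axis) of each member in every aggregate library, shRNA library and summed Boyden replicate, with a line at each group mean. Postn stands at 337 to 411 CPM in the 393P aggregates and at 18.7 to 36.2 CPM in the other aggregates of that table, and Tnxb at 83.3 to 103 CPM in aggregates of CAFs alone against 18.2 to 26.2 CPM in the cocultures.

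In the Boyden chambers the membrane kept the cells apart, so the comparison asks what reaches the fibroblasts without contact. No member was called higher against CAFs alone there, whichever cancer line was used. With 393P cells 4 members were lower (Tnc, Sparc, Thbs1 and Tnxb), and with 344SQ cells 3 members were lower (Postn, Sparc and Thbs2). Of all 14040 genes tested, 15.6% were called with 393P cells (7.68% higher and 7.96% lower) and 14.9% with 344SQ cells (7.43% higher and 7.44% lower). Values did not overlap for 3 members in either comparison, beside 12.4% of all genes with 393P cells and 9.93% with 344SQ cells.

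Among the members, Tnc had the largest difference between the lines in the chambers. It had 205, 222, 175, 150.2 and 216 CPM with 344SQ cells, 102, 102, 116, 85.8 and 89.0 CPM with 393P cells and 176, 173, 176, 197 and 182 CPM in CAFs alone. All libraries with 393P cells lay below every other library, whereas those with 344SQ cells spanned the range of CAFs alone. The log2 change was 0.10 ± 0.09 with 344SQ cells (SE, adjusted p = 0.496) and -0.87 ± 0.09 with 393P cells (adjusted p = 2.82e-07), and 344SQ exceeded 393P by 0.97 ± 0.09 (adjusted p = 5.19e-08, edgeR).

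Sparc was lower with both lines. Its values were 3200.5, 3387, 2894, 3066 and 2851 CPM with 344SQ cells, 3025, 3270, 3034, 3076 and 3386 CPM with 393P cells and 4267, 4150.5, 4062, 3939.9 and 4351 CPM in CAFs alone. The cocultures overlapped each other and neither overlapped CAFs alone. The log2 change was -0.43 ± 0.06 with 344SQ cells (SE, adjusted p = 7.12e-06) and -0.40 ± 0.06 with 393P cells (adjusted p = 4.82e-05, edgeR). Between the lines it was -0.04 ± 0.06 (adjusted p = 0.836).

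Postn was low in all Boyden groups. It had 13.0, 12.5, 11.9, 8.31 and 15.7 CPM with 344SQ cells, 16.5, 17.9, 19.3, 16.4 and 13.3 CPM with 393P cells and 21.3, 19.2, 21.6, 17.9 and 19.1 CPM in CAFs alone, from 38 to 183 counts. Only the 344SQ chambers lay wholly below CAFs alone. The log2 change was -0.69 ± 0.13 with 344SQ cells (SE, adjusted p = 0.000415) and -0.25 ± 0.12 with 393P cells (adjusted p = 0.156, edgeR). Set against 393P cells, 344SQ cells gave -0.44 ± 0.13 (adjusted p = 0.0642), which passed with no filter on low counts (adjusted p = 0.0180) and with DESeq2 (adjusted p = 0.0438).

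Thbs1 was lower with 393P cells and Thbs2 with 344SQ cells. Thbs1 averaged 5742 ± 448 CPM with 344SQ cells, 4867 ± 180.3 CPM with 393P cells and 5773 ± 72.0 CPM in CAFs alone (SD, n = 5 each). Its log2 change was -0.01 ± 0.06 with 344SQ cells (adjusted p = 0.952) and -0.25 ± 0.06 with 393P cells (adjusted p = 0.00449, edgeR). Thbs2 averaged 289 ± 17.4 CPM with 344SQ cells, 355 ± 13.9 CPM with 393P cells and 348 ± 10.3 CPM in CAFs alone. Its 344SQ values, 275 to 308 CPM, lay below all others, with a log2 change of -0.27 ± 0.05 against CAFs alone (adjusted p = 0.00109) and -0.30 ± 0.05 against 393P cells (adjusted p = 0.00103). With 393P cells Thbs2 gave 0.03 ± 0.05 against CAFs alone (adjusted p = 0.756). Tnxb rested on few counts, at 13 to 22 counts with 344SQ cells, 12 to 32 with 393P cells and 31 to 54 in CAFs alone. It averaged 3.60 ± 0.855 CPM with 344SQ cells, 3.08 ± 1.01 CPM with 393P cells and 5.67 ± 1.43 CPM in CAFs alone, with log2 changes of -0.65 ± 0.23 with 344SQ cells (adjusted p = 0.0550) and -0.86 ± 0.22 with 393P cells (adjusted p = 0.00859). The first of these passed with no filter on low counts (adjusted p = 0.0312).

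Between the lines in the chambers, 3 members were called (344SQ over 393P, Tnc and Thbs1 higher, Thbs2 lower) beside 3.88% of all genes tested (2.52% higher and 1.36% lower), and 2 did not overlap beside 4.46%. Thbs1 differed by 0.24 ± 0.06 (adjusted p = 0.0149) and lost its call without 344SQ replicate 1 (adjusted p = 0.0659). Tnxb differed by 0.21 ± 0.25 (adjusted p = 0.762). When single technical libraries replaced the sums, fewer members were called, except with 393P cells from library 3, which again called 4. The second library gave 0 calls with 344SQ cells and 1 with 393P cells against CAFs alone. Each single library lost the 344SQ calls of Thbs2 against CAFs alone (adjusted p from 0.0652 to 0.297, edgeR) and against 393P cells (0.135 to 0.297). The Thbs1 call between the lines was also lost in each (adjusted p from 0.0817 to 0.592). Without the technical library richest in carcinoma markers (replicate 1 with 393P cells, 179 CPM), the 393P comparison still called 4 members, with Tnc at -0.89. Cdh3, a marker of that list, had 56.4 to 73.1 CPM even in CAFs alone. The part of cancer cells in the calls was not tested.

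**Figure D2:**
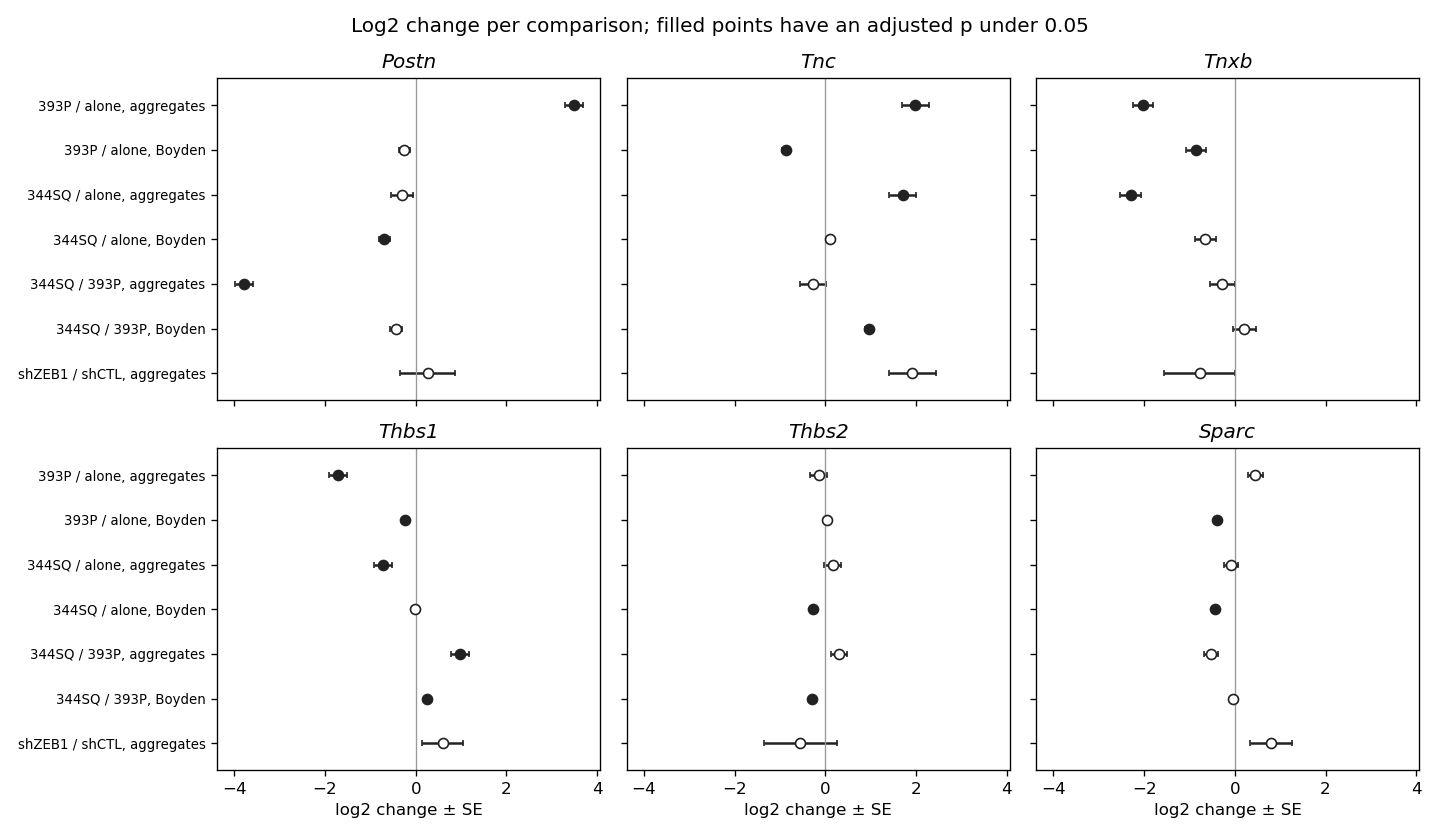
Log2 change ± SE (horizontal axis) of each member in 7 comparisons, with filled points where the adjusted p was under 0.05. Tnc lies at 1.99 for 393P cells in aggregates and at -0.87 for the same line in Boyden chambers, and Tnxb lies below 0 in each comparison of a coculture with CAFs alone.

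Whether the effect of a line differed between the aggregates and the chambers was tested in a joint fit of 15193 genes. This fit shares its estimate of the spread between formats. Its biological coefficient of variation was 9.50%, against 16.2% in the aggregate table and 8.58% in the chambers. The SE and p-values of these differences may thus be too small. With a variance per format, limma-voom called 857 genes for 393P cells (1365 in edgeR) and 384 for 344SQ cells (719 in edgeR). The effect of 393P cells differed for 5 members, against 8.98% of all genes (5.32% more positive and 3.66% more negative), with Postn, Tnc and Sparc more positive in aggregates and Thbs1 and Tnxb more negative. The difference of effects was 3.81 ± 0.21 for Postn (SE, adjusted p = 8.38e-18, the smallest p of the fit), 2.94 ± 0.30 for Tnc (adjusted p = 7.67e-10) and 0.92 ± 0.14 for Sparc (adjusted p = 3.43e-06, edgeR). For Thbs1 it was -1.38 ± 0.18 (adjusted p = 1.61e-07) and for Tnxb -1.09 ± 0.32 (adjusted p = 0.0195). Tnc stood at 2.33 without 393P aggregate replicate 1. The Tnxb call was lost without CAFs alone aggregate replicate 1 or 3, 393P aggregate replicate 3 or 393P Boyden replicate 1 (log2 differences of -1.03, -1.04, -1.004 and -0.91, adjusted p from 0.0528 to 0.0753). It was also lost with limma-voom with a variance per format (-1.06, adjusted p = 0.0615), an alternative chosen after seeing the data, and with technical library 1 alone (-0.36, adjusted p = 0.825) or 3 alone (-0.84, adjusted p = 0.235).

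The effect of 344SQ cells differed for 3 members, against 4.73% of all genes (2.61% more positive and 2.13% more negative). The difference was 1.67 ± 0.30 for Tnc (SE, adjusted p = 0.000196), -1.61 ± 0.34 for Tnxb (adjusted p = 0.00130) and -0.66 ± 0.18 for Thbs1 (adjusted p = 0.0170, edgeR). The Thbs1 call was lost without CAFs alone aggregate replicate 2 (log2 difference -0.49, adjusted p = 0.135) and without 344SQ aggregate replicate 1 (-0.56, adjusted p = 0.0760) or 2 (-0.57, adjusted p = 0.0753). Technical library 1 or 3 alone also lost it (-0.64, adjusted p = 0.144, and -0.55, adjusted p = 0.173). The Tnxb call for 344SQ cells was lost with technical library 1 (-1.30, adjusted p = 0.258) or 2 alone (-0.91, adjusted p = 0.518). Thbs2 at 0.48 ± 0.17 (adjusted p = 0.0954), Sparc at 0.39 ± 0.14 (adjusted p = 0.104) and Postn at 0.42 ± 0.28 (adjusted p = 0.490) did not pass. Thbs2 passed with no filter on low counts (0.50, adjusted p = 0.0384) and without CAFs alone aggregate replicate 2 (0.70, adjusted p = 0.00566) or 344SQ aggregate replicate 2 (0.62, adjusted p = 0.0200), and Sparc passed with DESeq2 (0.38, adjusted p = 0.0416) and without 344SQ aggregate replicate 1 (0.50, adjusted p = 0.0241). Formats differ also in library makeup, as rRNA-like genes took 18.9 to 24.9% of counts in the aggregates and 0.284 to 0.497% in the chambers. Contact, culture, depth and library preparation thus cannot be told apart, either in levels set across the tables or in the differences of effects.

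In the shRNA table shZEB1 cultures were set against shCTL cultures to ask whether an shRNA named for ZEB1 in 344SQ cells changes the fibroblasts around them. No member passed edgeR's test, nor did any of the 7801 genes (percent called 0), while 1 member and 466 genes (5.97%) had an unadjusted p under 0.05. DESeq2 called 27 genes and no member, and edgeR with no filter on low counts called 90 genes and 1 member, Tnc. Tnc had 642, 351 and 999 CPM with shZEB1 and 137, 289 and 99.6 CPM with shCTL. It was the sole member without overlap, beside 11.7% of all genes. Its log2 change was 1.92 ± 0.52 (SE, adjusted p = 0.692), and with no filter the adjusted p was 0.0191. The highest Tnc values came from shZEB1 replicates 1 and 3, whose carcinoma markers summed to 46.2 and 553 CPM. In each group the lowest Tnc value came from the library with the highest carcinoma marker sum. These were shZEB1 replicate 2 (959 CPM) and shCTL replicate 3 (1473 CPM), and the part of these sums in Tnc was not tested.

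The other members scattered within the groups. Thbs2 had 565, 175 and 145 CPM with shZEB1 and 346, 917 and 34.8 CPM with shCTL, and the lowest value came from the shCTL library with the highest carcinoma marker sum, whose part in this value was not tested. Its log2 change of -0.55 ± 0.80 turned to 0.64 without shCTL replicate 2. Thbs1 had 1489, 1604 and 1674 CPM with shZEB1 and 1231, 1500.5 and 426 CPM with shCTL (0.59 ± 0.46, adjusted p = 0.853). Sparc had 1251, 1226 and 840 CPM with shZEB1 and 843, 796 and 266 CPM with shCTL (0.80 ± 0.46, adjusted p = 0.801, edgeR). In both genes the lowest library was again shCTL replicate 3. Postn had 49.2, 70.4 and 24.3 CPM with shZEB1 and 46.5, 33.9 and 38.7 CPM with shCTL (0.26 ± 0.61, adjusted p = 0.957). Tnxb had 14.5, 5.87 and 28.2 CPM with shZEB1 and 43.7, 18.9 and 22.2 CPM with shCTL (-0.78 ± 0.77, adjusted p = 0.872, edgeR). The spread of this table, a biological coefficient of variation of 61.7% against 16.2% in the aggregate table and 8.58% in the chambers, limits what could be called. Mitochondrial genes took 27.6, 25.6 and 23.5% of counts with shZEB1 and 40.8, 36.2 and 26.1% with shCTL, against 19.0 to 24.3% in the aggregate table. The part of these shares in the member values was not tested.

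Per kilobase of merged exons, Sparc or Thbs1 was the highest member in all 30 libraries. In 10 libraries the order was Sparc, Thbs1, Thbs2, Tnc, Postn, Tnxb, and in 7 it was the same with Thbs1 ahead of Sparc. Tnxb was last in all libraries except the 3 aggregates of CAFs alone, where Postn was last. Thbs1 and Sparc did not differ beyond their spread in the 393P chambers, at 801 ± 29.7 and 834 ± 42.6 CPM per kb (SD, n = 5). In the aggregates with 344SQ cells Tnc stood above Thbs2 in all 3 libraries, at 115 ± 37.0 against 50.3 ± 8.75 CPM per kb, and in CAFs alone below it in all 3, at 35.5 ± 14.7 and 45.4 ± 12.7 CPM per kb.

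The balance within each family is described here by ratios of levels per length. The per-kilobase ratio of Tnc to Tnxb was 50.03 to 97.3 with 344SQ cells in aggregates, 43.1 to 125 with 393P cells and 3.13 to 7.70 in CAFs alone. In the chambers the ratio was 68.8 to 112 with 344SQ cells, 35.9 to 73.8 with 393P cells and 34.3 to 64.1 in CAFs alone. Aggregates of CAFs alone were thus the sole group of those tables with ratios under 10. In the shRNA table the ratio was 55.7 to 93.9 with shZEB1 and 4.93 to 24.02 with shCTL. The ratio of Thbs1 to Thbs2 was 6.44 to 10.2 with 344SQ cells in aggregates, 3.87 to 8.36 with 393P cells and 13.4 to 19.4 in CAFs alone. In the chambers it was 20.8 to 25.9 with 344SQ cells, 14.97 to 17.1 with 393P cells and 18.6 to 19.6 in CAFs alone, 3 ranges that did not overlap. These ratios are descriptions and were not tested.

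**Figure D3:**
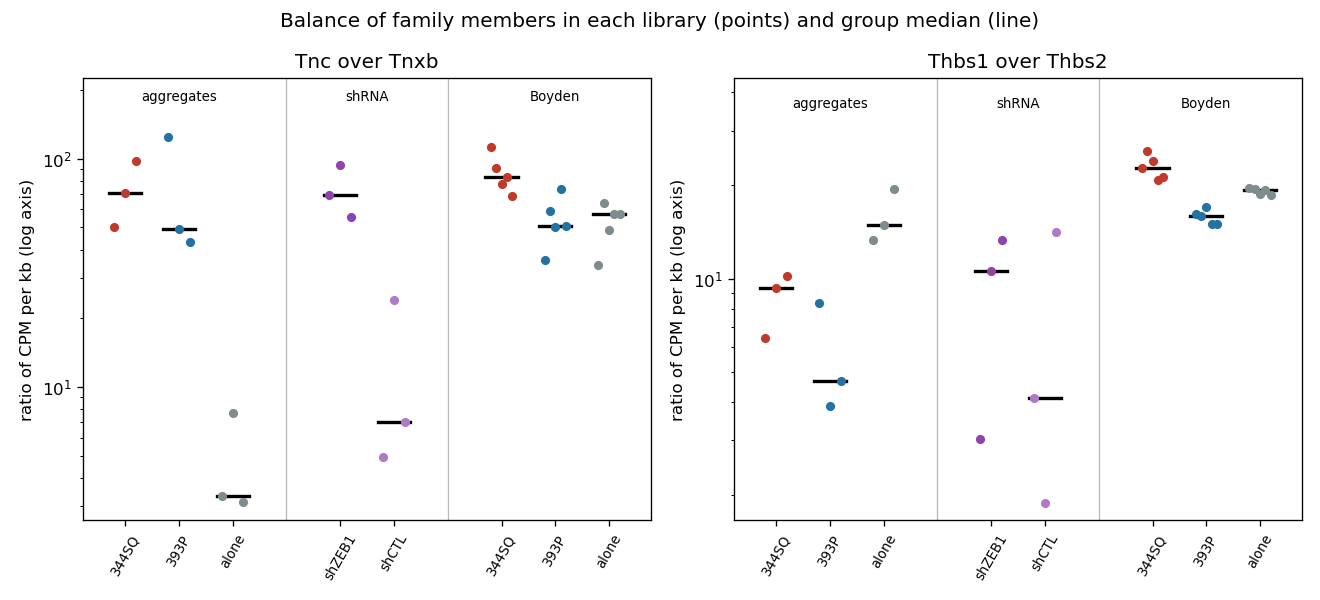
Ratio of CPM per kb (log axis) of Tnc to Tnxb and of Thbs1 to Thbs2 in each library, with a line at each group median. The Tnc to Tnxb ratio of CAFs alone is 3.13 to 7.70 in aggregates and 34.3 to 64.1 in Boyden chambers.

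The genes whose pattern was most like each member were sought over the 9 aggregate libraries and 15 Boyden sums, each centred on the CAFs alone of its own table. Across these 24 libraries, which share the structure of 6 groups, Postn was most like Pdgfrb, the platelet-derived growth factor receptor beta (Pearson r = 0.957), and the collagen VI gene Col6a2 (r = 0.941). Like Postn, Pdgfrb was higher with 393P cells in aggregates, by 2.12 ± 0.17 on the log2 scale (SE, edgeR). The genes named here were picked for likeness over these same libraries. Changes shared with their member thus come with that choice and are descriptions. Tnc was most like Parp8 (r = 0.921) and the vitamin C transporter Slc23a2 (r = 0.919). Slc23a2 was higher in aggregates with 344SQ cells (1.01 ± 0.23) and with 393P cells (1.10 ± 0.23). Parp8 was not called there with 344SQ cells (0.71 ± 0.28, adjusted p = 0.158) or 393P cells (0.68 ± 0.28, adjusted p = 0.126, edgeR). In the 393P chambers, where Tnc was lower, Slc23a2 was not called (-0.07 ± 0.09, adjusted p = 0.691, edgeR). Tnxb was most like Hivep3 and Myrf (r = 0.911 each), which were lower with both lines in both formats. Thbs1 was most like Sulf2, a heparan sulfate sulfatase (r = 0.950), and Amotl2, an angiomotin (r = 0.945). Sulf2 changed by -0.85 ± 0.19 with 344SQ cells and -2.53 ± 0.22 with 393P cells in aggregates. Amotl2 changed by -1.41 ± 0.29 with 393P cells there and was not called with 344SQ cells (-0.52 ± 0.27, adjusted p = 0.361, edgeR). Sparc was most like the collagen V gene Col5a1 (r = 0.903) and the laminin gene Lama5 (r = 0.902). For Thbs2 the closest genes, Cyc1 and Dctn6, reached only r = 0.777 and 0.770. Among the members themselves Postn and Sparc had r = 0.787, Thbs1 and Tnxb 0.742, Tnc and Tnxb -0.643 and Postn and Thbs1 -0.844.

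Among other matricellular genes, Spp1 was called higher with both lines in both formats. Of 18 tested in the aggregates, 9 were higher and 3 lower with 393P cells (66.7% against 10.7% of all genes), with a median log2 change of 0.59 beside -0.00228 over all genes. Spp1, the integrin ligand osteopontin, rose to 401 ± 47.4 CPM with 393P cells, against 79.1 ± 8.93 CPM in CAFs alone (SD, n = 3 each), a log2 change of 2.33 ± 0.19 (adjusted p = 2.98e-10, edgeR). Smoc1, a relative of Sparc, and the lectin gene Lgals3 fell, with log2 changes of -2.39 ± 0.27 and -1.92 ± 0.28. With 344SQ cells 4 of 18 were higher and 2 lower (33.3% against 5.84% of all genes), among them Spp1 (2.25 ± 0.19), the calcification inhibitor Mgp (2.32 ± 0.30) and Smoc1 (-1.84 ± 0.26). In the chambers 2 of 20 were higher and 8 lower with either line (50%, against 14.9% of all genes with 344SQ cells and 15.6% with 393P cells). Spp1 rose there by 2.48 ± 0.09 with 344SQ cells and 2.24 ± 0.09 with 393P cells, while Nov, a CCN family member, fell, at -2.29 ± 0.11 with 344SQ cells and -1.23 ± 0.10 with 393P cells. The effect on Wisp2, another CCN gene, differed between formats by 2.69 ± 0.37 for 344SQ cells and 3.14 ± 0.36 for 393P cells.

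Of the receptors of these proteins, 7 of 23 were higher and 4 lower with 393P cells in aggregates, and 2 were higher and none lower with 344SQ cells. These were 47.8% of the list against 10.7% of all genes with 393P cells, and 8.70% against 5.84% with 344SQ cells, a share close to that of all genes. The heparan sulfate receptor Sdc2 rose by 0.84 ± 0.20 with 344SQ cells and 1.66 ± 0.19 with 393P cells, and Sdc4 fell by 1.40 with 393P cells. The integrin gene Itgb3, part of a periostin receptor, had 14.1 ± 1.84 CPM with 344SQ cells and 47.4 ± 7.91 CPM with 393P cells (log2 difference -1.76 ± 0.33, adjusted p = 0.000880, edgeR). In the chambers 4 of 30 receptors were higher and 5 lower with either line (30%, against 14.9% of all genes with 344SQ cells and 15.6% with 393P cells). The integrin gene Itga1 fell there by 1.15 ± 0.12 with 344SQ cells and 0.96 ± 0.11 with 393P cells, and Ddr1 fell by 0.78 ± 0.10 with 393P cells. Sdc4 rose by 0.50 ± 0.07 with 344SQ cells and 0.38 ± 0.07 with 393P cells there, and Cd47, the thrombospondin receptor, rose by 0.47 ± 0.06 with 344SQ cells. The effect of 393P cells on Sdc4 differed between formats by -1.71 ± 0.19 (adjusted p = 7.83e-09).

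Matrix binding partners were called mostly higher with 393P cells in aggregates and mostly lower with either line in the chambers. With 393P cells in aggregates 9 of 21 were higher and 3 lower (57.1% against 10.7% of all genes), with fibrillin 1 (Fbn1) at 2176 ± 107 CPM against 567 ± 14.9 CPM in CAFs alone (1.94 ± 0.15) and the basement membrane collagen Col4a1 at 1.90 ± 0.17. With 344SQ cells 2 were higher and 3 lower (23.8% against 5.84%), with Fbn1 at 1.09 ± 0.15 and Fbln2 at -1.08 ± 0.16. In the chambers 2 of 21 were higher and 10 lower with 344SQ cells, and 1 was higher and 11 lower with 393P cells, which is 57.1% in each, against 14.9% of all genes with 344SQ cells and 15.6% with 393P cells. Col3a1, a fibrillar collagen, fell, at -0.90 ± 0.07 with 344SQ cells and -0.61 ± 0.07 with 393P cells. With 393P cells Col1a1 stood at -0.43 ± 0.06 and Col4a1 at -0.40 ± 0.06. In the joint fit the effect of 393P cells differed for 14 of 22 partners (63.6% against 8.98% of all genes), 10 of them more positive in aggregates, with a difference of 2.38 ± 0.16 for Col4a1 (adjusted p = 1.81e-15, edgeR).

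In the TGF-beta pathway, which induces Postn, Tnc and Sparc in fibroblasts and which Thbs1 can activate, 4 of 23 genes were higher and 3 lower with 393P cells in aggregates, and 3 were higher and 1 lower with 344SQ cells. The shares called were 30.4% with 393P cells, against 10.7% of all genes, and 17.4% with 344SQ cells, against 5.84%. Tgfb1, the ligand, had 57.3 ± 3.41 CPM with 344SQ cells, 152 ± 31.0 CPM with 393P cells and 39.7 ± 1.81 CPM in CAFs alone, a log2 change of 1.94 ± 0.20 with 393P cells (adjusted p = 2.83e-08, edgeR). Pmepa1, a target gene of the pathway, rose by 1.10 ± 0.17 with 344SQ cells and 1.31 ± 0.17 with 393P cells. Tgfbr3, of the same list, fell with 393P cells, at -1.52 ± 0.18. In the chambers 6 of 25 were higher and 5 lower with either line (44%, against 14.9% of all genes with 344SQ cells and 15.6% with 393P cells). The ligand gene Tgfb3 fell, at -0.70 ± 0.08 with 344SQ cells and -0.45 ± 0.07 with 393P cells. Among the genes called higher there were Ltbp2 (0.84 ± 0.07) and Tgfbr3 (0.45 ± 0.06) with 344SQ cells, and Skil (0.39 ± 0.08) with 393P cells.

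Of the proteases that cleave these proteins, 3 of 10 were higher and 4 lower with 393P cells in aggregates, and 1 was lower with 344SQ cells. That was 70% of the list with 393P cells, against 10.7% of all genes, while a single gene of 10 with 344SQ cells is close to the 5.84% of all genes. Adamts1, which cleaves thrombospondins, had 414 ± 72.1 CPM with 344SQ cells, 93.5 ± 9.54 CPM with 393P cells and 397 ± 66.6 CPM in CAFs alone, a log2 change of -2.09 ± 0.18 with 393P cells (adjusted p = 7.63e-10, edgeR). Adamts5 fell with both lines, at -1.18 ± 0.26 with 344SQ cells and -2.86 ± 0.31 with 393P cells. Plat was higher with 393P cells (1.11 ± 0.20). In the chambers 3 of 11 were higher and 5 lower with 344SQ cells (72.7% against 14.9% of all genes), and 2 were higher and 4 lower with 393P cells (54.5% against 15.6%). The collagenase Mmp13 rose by 3.22 ± 0.12 with 344SQ cells and 1.25 ± 0.14 with 393P cells, and the stromelysin Mmp3 rose by 2.59 ± 0.13 with 344SQ cells and 1.67 ± 0.13 with 393P cells. Among the genes called lower there were Adamts5 with 344SQ cells (-0.71 ± 0.07) and Adamts1 with 393P cells (-0.66 ± 0.08). With shZEB1 against shCTL no gene of the 5 lists was called by edgeR, at 2, 2, 2, 2 and 0 unadjusted p under 0.05 for other matricellular genes, receptors, partners, proteases and TGF-beta genes. Among the most abundant genes of these lists, the scavenger receptor gene Lrp1 had a log2 change of -0.51 ± 0.55 (adjusted p = 0.893), the galectin gene Lgals1 had 1.25 ± 0.42 (adjusted p = 0.768) and Fn1, encoding fibronectin, had 0.56 ± 0.53 (adjusted p = 0.870).

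With 393P cells in aggregates the median log2 change was 0.36 for partners, 0.26 for TGF-beta genes, 0.09 for receptors and -0.18 for proteases. In the chambers with 393P cells it was -0.31 for other matricellular genes and -0.22 for partners, beside 0.000645 over all genes. Between the lines in aggregates (344SQ over 393P), 8 of 21 partners were lower and 2 higher (47.6% against 4.15% of all genes), with Col4a1 at 192 ± 22.6 CPM with 344SQ cells and 597 ± 139 CPM with 393P cells (-1.64 ± 0.17, adjusted p = 1.06e-07, edgeR). Of 18 other matricellular genes (16.7% called) 1 was higher, the integrin ligand Tgfbi (2.42 ± 0.43), and 2 were lower, Igfbp7 (-1.11 ± 0.21) and Pxdn (-0.65 ± 0.19). In the chambers 3 of 20 other matricellular genes were higher and 3 lower between the lines (30% against 3.88% of all genes), with Mgp at -1.29 ± 0.14 and Nov at -1.06 ± 0.12. No list was tested as a set, and the shares stand beside those of all genes as descriptions.

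**Figure D4:**
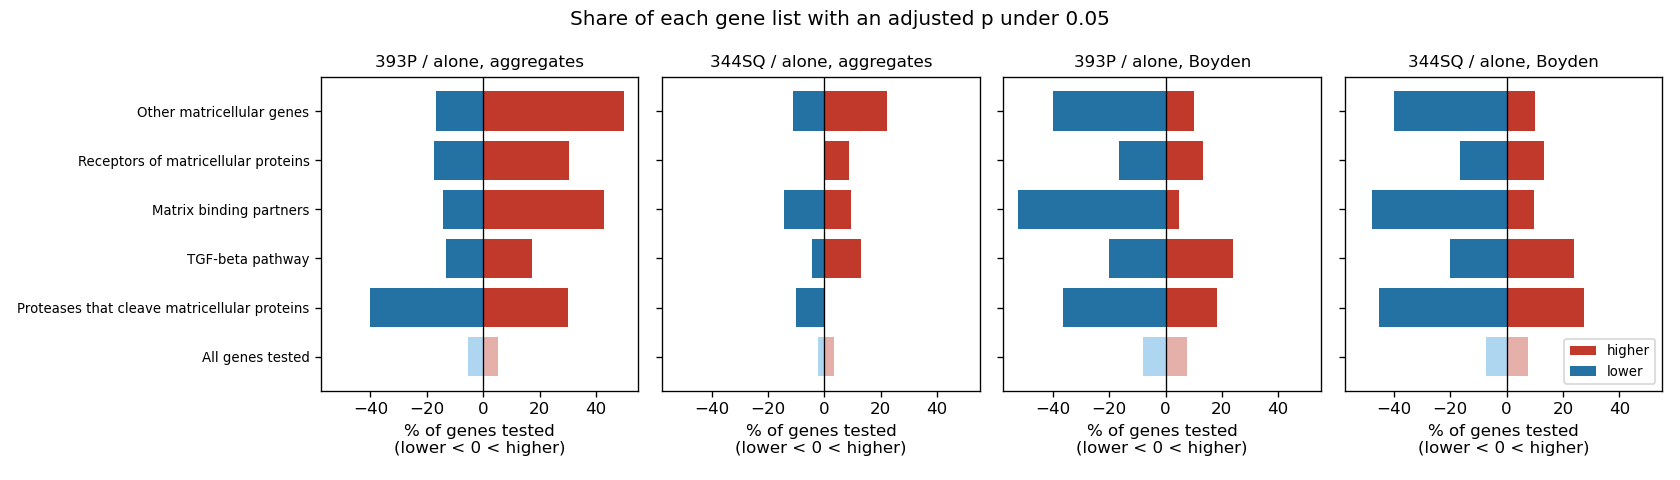
Share of the tested genes of each list, and of all genes tested, called higher (right of 0) or lower (left of 0) in 4 comparisons with CAFs alone, in percent. With 393P cells 9 of 18 other matricellular genes and 9 of 21 matrix binding partners were called higher in aggregates, against 2 of 20 and 1 of 21 in Boyden chambers.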

How the data were processed

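All 3 deposited tables give unnormalized read counts, and the authors used STAR, HTSeq and the mouse build mm10, per the submitters' processing notes. Neither versions nor annotation nor strand setting are stated in what was used here. The 45 Boyden columns were summed to 15 replicates. Each table was filtered with filterByExpr and scaled by TMM, and its groups were fitted together by edgeR 4.0.16 quasi-likelihood tests in R 4.3.3, with Benjamini-Hochberg adjustment over all genes and a threshold of 0.05. Aggregate and Boyden tables were fitted jointly for differences between formats. The scripts were tested on simulated data. Alternatives were DESeq2 1.42.0, limma 3.58.1, other scalings, no filter, removal of 357 rRNA-like and 37 mitochondrial genes, single technical columns, thinned counts, a replicate block and leaving out each replicate. Gene positions come from GENCODE M21. The low aggregate depth leaves weak genes with wide counting error.

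The members and lists were chosen with earlier results of these data known. All 6 members are named in every comparison. Of each list, up to 3 called genes of smallest p are candidates for naming, or the 2 of highest level where none was called. One such gene is not reported here. For likeness, the 2 genes with the highest Pearson r on log2 CPM (prior count 2) are named, among genes of at least 10 CPM on average. No columns were identical, and none was left unused. Figures were drawn with matplotlib 3.10.9.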

Additional observations from a re-analysis of the deposited data

Results flagged for a closer look

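All flags are differences of an effect between culture formats, each by the interaction test of the joint edgeR fit (positive means more positive in aggregates). For 393P cells against CAFs alone they were 3.81 for Postn, 2.94 for Tnc, 0.92 for Sparc, -1.38 for Thbs1 and -1.09 for Tnxb. For 344SQ cells they were 1.67 for Tnc, -0.66 for Thbs1 and -1.61 for Tnxb. Tnc and Sparc were called lower with 393P cells in the chambers, and in the aggregates Tnc was called higher. None of the 18 Boyden sets of 5 values held a sample far enough from the others to be flagged.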

How the results depend on the processing

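Of 1260 alternative values of the members, 1183 kept direction and side of the threshold, 35 lost a call, 25 gained a call and 17 turned direction, and none of the turned values had been called. Leaving out each replicate gave 4 to 5 calls for 393P against CAFs alone in aggregates, 2 to 3 for 344SQ, 2 to 3 between the lines, 4, 3 to 4 and 2 to 4 in the same comparisons of the chambers, 0 for shZEB1, and 4 to 5 (393P) and 3 (344SQ) between formats. With technical library 1, 2 or 3 alone the Boyden comparisons called 2, 1 and 4 members (393P), 1, 0 and 2 (344SQ) and 1 each (between the lines), and the 344SQ difference between formats called 1 with the first. No filter gave 1 call for shZEB1. Values that turned were Thbs2 with 393P cells in aggregates (-0.29 to 0.10 when each replicate was left out, turned without CAFs alone replicate 2) and between formats (-0.26 to 0.14, turned without that replicate and, at 0.07, without 393P replicate 1), Sparc with 344SQ cells (-0.20 to 0.0361, turned without 344SQ replicate 1), and Tnc between the lines (-0.58 to 0.35, turned without 393P replicate 1). In the chambers, library 2 alone turned Postn with 393P cells (0.12), Thbs1 with 344SQ cells (0.20), Sparc between the lines (0.10) and Postn between formats for 344SQ cells (-0.0781). Library 3 alone turned Thbs2 with 393P cells (-0.0149) and Tnc with 344SQ cells (-0.00286). Thbs1 with 344SQ cells also turned with upper-quartile scaling (0.00979) and without 344SQ replicate 4 (range -0.0372 to 0.0349). With shZEB1, Postn turned without shZEB1 replicate 2 (range -0.0687 to 0.59) and with limma-voom (-0.0355), and Thbs2 without shCTL replicate 2 (range -1.46 to 0.64). The cause was not tested.

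With a replicate block the numbers of calls were 4, 3 and 3 in the aggregates (393P, 344SQ, between the lines), 4, 3 and 3 in the chambers and 0 for shZEB1, and Thbs2 with shZEB1 turned (0.20). Sparc between the lines in aggregates gained its call under the block (-0.54, adjusted p = 0.0431). Deviations of same-numbered samples had r from -0.030 to 0.072 in aggregates, -0.030 to 0.126 in the shRNA table and -0.303 to 0.265 in chambers. Differently numbered samples had r from -0.083 to 0.080, -0.150 to 0.085 and -0.366 to 0.414. With so few pairs this cannot tell whether same-numbered samples were prepared together.

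Counts over all genes that moved by over 1.5 times were 284 for 344SQ against CAFs alone without CAFs alone replicate 3 (467 with it), 609, 199 and 1133 (393P, 2195 from sums), 500, 513 and 739 (344SQ, 2087) and 73, 280 and 152 (between the lines, 545) from single technical libraries. Between formats they were 818 and 804 from libraries 1 and 2 and 857 with limma-voom for 393P cells (1365), and 364, 414 and 384 for 344SQ cells (719). For shZEB1 they were 90, 27, 1 and 1 with no filter, DESeq2, the replicate block and limma-voom (0). No scaling moved the median of all genes by over 0.1. Depth limits Tnxb in the chambers and in the aggregates with cancer cells, and Postn outside the 393P aggregates.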
